A study of Mus musculus with 12 samples.

Results

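A set of 103 protein-coding genes kept one start site open in all 12 libraries and opened another start site, at least 5 kb away, in some groups of cells only. A start site was called open in a library when the midpoint of a deposited DNase-seq peak lay within 500 bp of it. The 103 genes were selected on this presence of peaks, as those with a second start open in all replicates of 1 to 4 groups and in no library of the other groups. They are 103 of 21755 protein-coding genes on chromosomes 1 to 19 and X, 4953 of which have annotated protein-coding starts at least 5 kb apart and 2184 of which also had a start open in every library. The share that qualified was therefore 4.72% of the 2184 genes. The 103 genes hold 108 group-limited starts, called switching starts here, and each is paired with the nearest suitable start that was always open, the constant start. Since peak presence chose the genes, the group in which each switching start was open is a description and carries no test.

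DNase-seq finds open chromatin by sequencing the short fragments that DNase I cuts out of nuclei, and clusters of cuts are called as peaks. The cells were Lin-SCA1+KIT+ progenitors sorted from the marrow of C57BL/6J mice (LSK, 3 libraries), and cells grown from them in a medium with SCF, FLT-3 ligand, IL-6 and IL-11. On immobilized Delta1ext-IgG, a Notch ligand, the cultures gave KIT++CD44+CD25- cells (DN1, 2 libraries, grown without IL-7), KIT++CD44+CD25+ cells (DN2a, 2 libraries) and KIT+CD44loCD25+ cells (DN2b, 2 libraries, both DN2 stages grown with IL-7). Cultures on human IgG1 without ligand gave the IgG group (3 libraries). A comparison of DN1 with DN2 cells is thus one of IL-7 too, all but the LSK cells had been cultured, and the DN cells were taken from each LSK isolate, although the labels do not tie libraries to isolates. By the methods of the study the replicates of a group came from separate LSK isolates and cultures, and p-values measure the spread between these few libraries.

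Many genes have more than one promoter. Transcripts from the different promoters begin with different first exons, which can change the 5′ untranslated region alone or, where the first coding exon differs, the amino end of the protein, and the promoters of one gene can answer to different transcription factors. CpG-rich promoters are usually open in many cell types, whereas CpG-poor promoters are more often open in particular cell types. An open start site does not show that transcription began there, and in bulk nuclei a start opened in few cells cannot be told apart from a start opened weakly in all of them.

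The sequences of 6 pairs of starts show the contrast in base composition that most of the members share. They are the 150 bases directly before the switching and the constant start of 1 gene for each larger pattern of groups, read from GRCm38, the assembly behind mm10, 5′ to 3′ on the strand of the gene, with every CpG in capitals. Except in DN2b, genes were taken by rank of peak score among those whose switching transcript is complete at its 5′ end, whose printed bases overlap no annotated exon and whose peak midpoints lay, in the median over libraries, within 150 bp of the start, and not every gene that meets this is printed. In DN2b, Rps14 ranked above the printed Slc23a2 and met the same conditions. No gene of the LSK pattern met these conditions.
Utrn switching start, chr10:12813616-12813765, minus strand: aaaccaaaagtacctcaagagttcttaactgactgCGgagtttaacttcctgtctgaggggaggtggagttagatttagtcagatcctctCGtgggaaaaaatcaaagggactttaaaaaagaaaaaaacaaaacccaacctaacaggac
Utrn constant start, chr10:12868282-12868431, minus strand: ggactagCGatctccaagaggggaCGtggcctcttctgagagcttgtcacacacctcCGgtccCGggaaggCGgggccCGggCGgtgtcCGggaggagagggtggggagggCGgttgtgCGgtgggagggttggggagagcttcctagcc
Ston2 switching start, chr12:91746085-91746234, minus strand: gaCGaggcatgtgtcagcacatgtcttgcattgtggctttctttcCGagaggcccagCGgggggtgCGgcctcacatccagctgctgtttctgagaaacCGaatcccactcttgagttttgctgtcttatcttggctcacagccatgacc
Ston2 constant start, chr12:91779138-91779287, minus strand: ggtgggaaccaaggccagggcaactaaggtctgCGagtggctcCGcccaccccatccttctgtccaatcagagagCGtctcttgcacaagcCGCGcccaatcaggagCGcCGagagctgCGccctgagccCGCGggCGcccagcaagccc
Rgs12 switching start, chr5:34998907-34999056, plus strand: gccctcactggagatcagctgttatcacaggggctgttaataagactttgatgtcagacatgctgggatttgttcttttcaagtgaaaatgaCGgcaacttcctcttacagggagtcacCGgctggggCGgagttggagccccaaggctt
Rgs12 constant start, chr5:34949295-34949444, plus strand: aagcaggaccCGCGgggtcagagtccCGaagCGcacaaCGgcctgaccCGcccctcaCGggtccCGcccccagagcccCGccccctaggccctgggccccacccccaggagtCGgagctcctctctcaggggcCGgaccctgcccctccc
Rab5c switching start, chr11:100730216-100730365, minus strand: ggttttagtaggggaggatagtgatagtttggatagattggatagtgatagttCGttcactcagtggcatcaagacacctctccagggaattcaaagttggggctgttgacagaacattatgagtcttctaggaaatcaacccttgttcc
Rab5c constant start, chr11:100738216-100738365, minus strand: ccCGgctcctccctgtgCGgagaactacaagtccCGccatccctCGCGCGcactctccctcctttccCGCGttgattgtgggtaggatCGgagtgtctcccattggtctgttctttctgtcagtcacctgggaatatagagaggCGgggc
Cyth1 switching start, chr11:118212743-118212892, minus strand: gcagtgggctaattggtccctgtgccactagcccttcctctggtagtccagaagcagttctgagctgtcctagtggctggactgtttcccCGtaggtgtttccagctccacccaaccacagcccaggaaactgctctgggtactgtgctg
Cyth1 constant start, chr11:118248593-118248742, minus strand: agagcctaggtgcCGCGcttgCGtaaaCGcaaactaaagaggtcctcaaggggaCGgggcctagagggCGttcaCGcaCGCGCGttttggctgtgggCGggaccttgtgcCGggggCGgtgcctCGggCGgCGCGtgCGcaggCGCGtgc
Slc23a2 switching start, chr2:132145109-132145258, minus strand: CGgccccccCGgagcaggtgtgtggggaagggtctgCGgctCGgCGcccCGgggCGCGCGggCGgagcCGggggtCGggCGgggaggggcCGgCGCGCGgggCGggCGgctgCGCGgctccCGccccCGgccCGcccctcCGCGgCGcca
Slc23a2 constant start, chr2:132111449-132111598, minus strand: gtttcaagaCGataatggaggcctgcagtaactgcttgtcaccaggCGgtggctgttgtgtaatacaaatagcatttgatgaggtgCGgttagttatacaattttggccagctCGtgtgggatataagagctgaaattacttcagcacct
In 5 of the 6 pairs, the switching start had fewer CpG than the constant start of the same gene. Utrn, which encodes the dystrophin-related protein utrophin and whose second start was open in all groups but IgG, had 2 CpG against 10. For Ston2, an adaptor of endocytosis opened in the 3 Delta1-cultured groups, the counts were 5 and 11. Rgs12, a regulator of G protein signalling with a DN1-limited start, had 3 and 11, Rab5c, a small GTPase of early endosomes opened in DN2a and DN2b, had 1 and 10, and Cyth1, an exchange factor for ARF GTPases opened in IgG cultures, had 1 and 20. Slc23a2, a vitamin C transporter, had the reverse order, with 27 CpG before its DN2b-limited start and 4 before its constant start, whereas Rps14, of the same pattern and not printed, had 1 and 11. Over all members, the 150 bases before the start held a median of 3.00 CpG at switching starts and 11.0 at constant starts. Of the switching starts 6 had no CpG there, of the constant starts 0. Over all protein-coding genes, 53 of the 8463 start clusters open in every library and 4476 of the 17832 with no peak in any library had none, a start cluster being the starts of 1 gene that lie within 500 bp of the next.

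In a window of 2 kb centred on the start, the observed/expected CpG ratio had a median of 0.248 at the switching starts and 0.640 at the constant starts of the same genes. The ratio was lower at the switching start in 91 of 108 pairs. All start clusters together had a median of 0.348, those open in every library 0.654 and those with no peak 0.211. The constant starts are by the rule a part of the always-open starts, so that they lay near these follows from the selection. The switching starts lay near the starts without peaks. Each pair sets an always-open start beside one chosen as not always open. The CpG order within pairs is thus no result apart from the selection. The 1040 other start clusters limited to some groups, which are not among the 108, had a median of 0.437. Over the patterns of at least 5 genes, the median at switching starts ran from 0.172 in DN2a+DN2b to 0.306 in the pattern of all groups but IgG, and single genes of other patterns reached 0.760 (Kmt5a) and 0.684 (Tmcc3). The 17 pairs that went against the order, chosen here after their values were seen, included Arhgef7 in DN2b (0.972 against 0.684), Slc23a2 (0.801 against 0.167), Nfic (0.791 against 0.396), Nrg4 (0.733 against 0.494) and Adar (0.687 against 0.309).

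**Figure D1:**
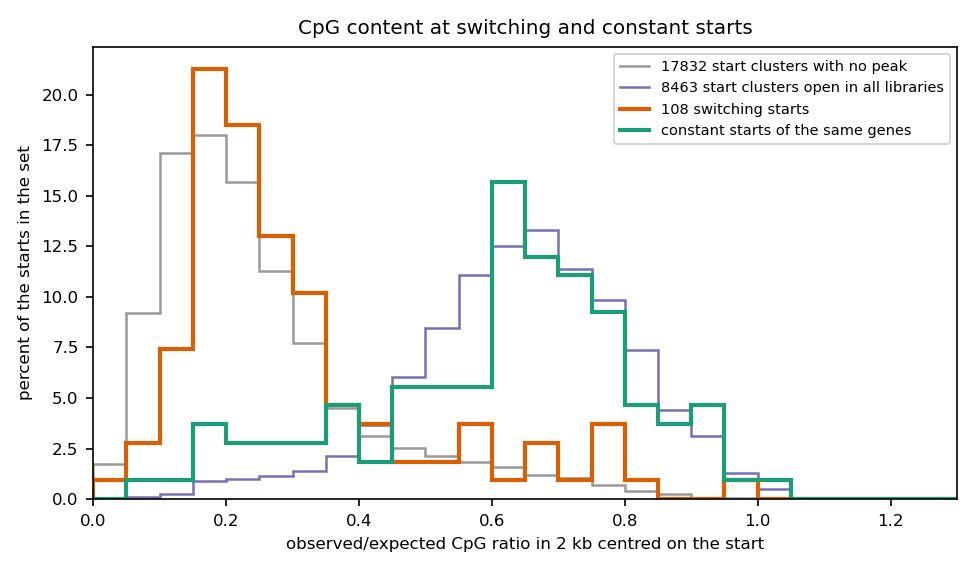
Distribution of the observed/expected CpG ratio in 2 kb centred on the start (x axis) as the percent of starts in each set (y axis), for 108 switching starts, the constant starts of the same genes, 8463 start clusters open in all libraries and 17832 with no peak. The switching starts peak between 0.15 and 0.25 with the starts that had no peak, and the constant starts follow the always-open starts, of which they are a part by selection.

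The switching start lay downstream of the constant start in 82 of 108 pairs and upstream in 26, with a median separation of 23.7 kb. Relative to the transcripts that begin at the constant start, 52 switching starts fell in an intron, 29 in an exon and 27 outside. No annotated coding start was shared in 70 pairs, 41 of them with a complete 5′ end at the switching start and 29 with an incomplete one, whose coding start may only be the end of the model, and 38 pairs had at least 1 coding start in common. At those 29 switching starts, every transcript that begins there is tagged as incomplete at its 5′ end, so the annotated start may not be a true one, and 51 belong to the basic set of full-length GENCODE transcripts. Of these 29, 26 lie inside an exon of a transcript that begins at the constant start. A start of another gene lay within 500 bp of 5 switching starts (Ikbkg with G6pdx, Rangap1 with Zc3h7b, Gbp9 with Gbp4 and Gbp8, Nrg4 with Tmem266, and B230118H07Rik with Rag1), and for these the peak cannot be given to one gene. At the 5 kb limit itself, Dok4 (5126 bp), Lcp1 (5374 bp) and Kmt5a (5563 bp) were just inside, and Ptov1 (4953 bp), Cops7b (4162 bp) and Bmi1 (4089 bp) just outside.

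**Figure D2:**
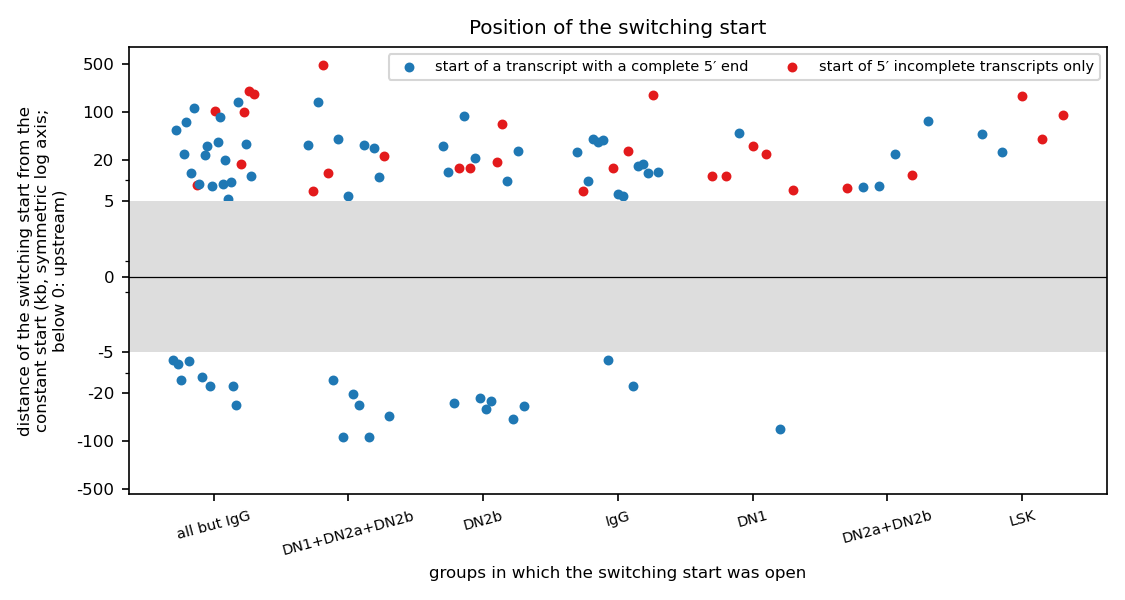
Signed distance of each switching start from its constant start in kb (y axis, symmetric log scale, values below 0 upstream), by the groups in which it was open (x axis). Red points are starts whose transcripts are all tagged incomplete at the 5′ end, and the grey band is the 5 kb that the selection leaves empty. All 6 members of the DN2a+DN2b pattern and all 5 of the LSK pattern lie downstream.

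Each peak carries a deposited score of no stated meaning, which was turned into a percentile of the peaks in its own list, so that a high percentile marks one of the stronger peaks of that library. Switching starts had a median percentile of 55.9 where open, against 89.2 at the constant starts, the latter over all 12 libraries. When both starts were read in the libraries where the switching start was open, the switching start had the lower median in 101 of 108 pairs. The 7 exceptions were Utrn, Rai1, Ston2, Rabgap1l, Sppl2a, Zfr2 and, with equal medians, Lrrc8c. Because the rule asks for a peak in every library at the constant start only, it favours stronger peaks there. The order of the 2 starts is thus no result apart from the selection. The peak lists held 32952 to 37511 peaks in the 3 IgG libraries and 53869 to 111582 in the others, and the switching starts open per group numbered 20 in IgG, 42 in LSK, 57 in DN2a, 59 in DN1 and 74 in DN2b. Read totals are not in the lists, so depth is unknown and the length of a list is its only measure here. The start of Il2ra, the CD25 gene, was open in the 4 DN2 libraries and in no other, those of the T cell regulators Tcf7 and Gata3 in all 6 Delta1-cultured libraries and in none of LSK and IgG, that of the commitment gene Bcl11b in 2 of the 4 DN2 libraries (1 of DN2a and 1 of DN2b), and that of Kit in all 12, whereas the SCA1 gene Ly6a had no peak at its start in any library. Of 6 T cell markers, 0 were open in LSK and IgG, 2 in DN1 and 5 to 6 in DN2 libraries. Of 6 myeloid markers, 2 to 3 were open in LSK, 4 in DN1, 2 to 3 in DN2 and 4 to 5 in IgG libraries, with the granule genes Mpo and Elane open in 1 IgG library only, and the part of myeloid cells in the patterns below was not tested.

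**Figure D3:**
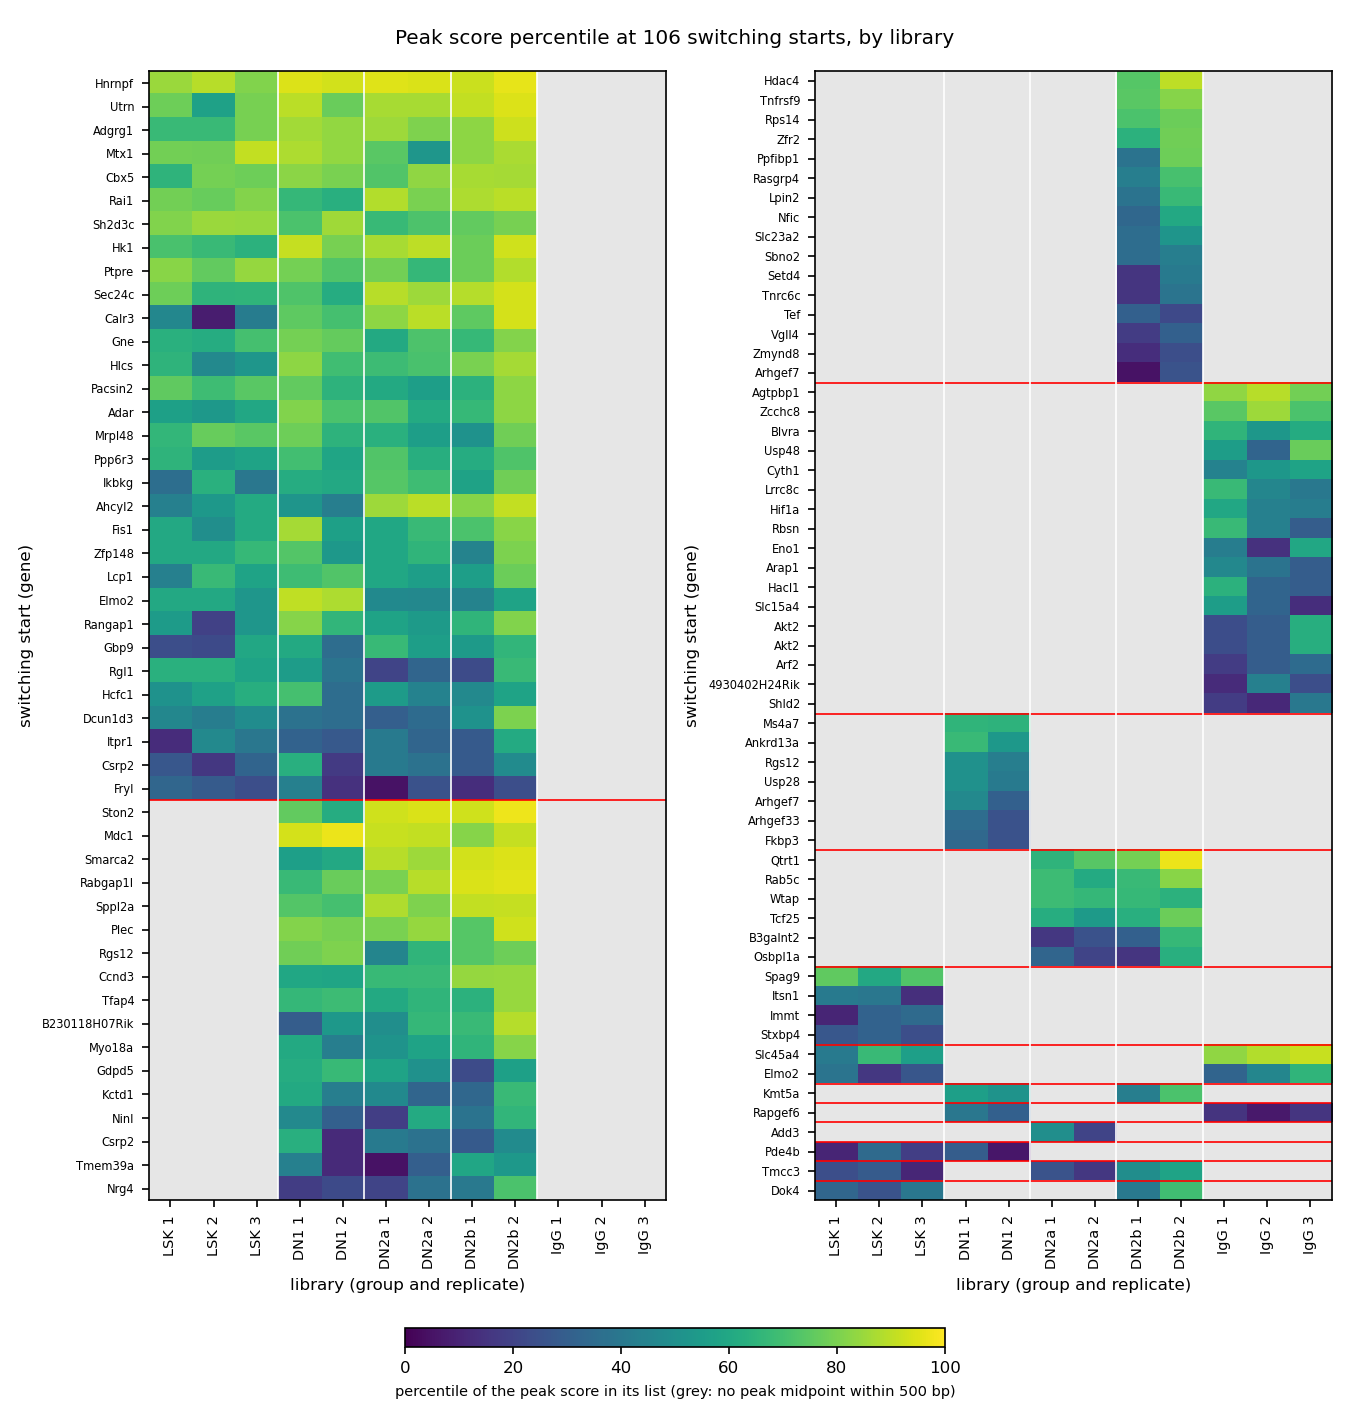
Percentile of the peak score (colour) at 106 of the switching starts (rows, named by gene) in the 12 libraries (columns), with grey where no peak midpoint lay within 500 bp and red lines between patterns. Open and closed cells follow the groups by selection, and the percentiles within the open cells fall from Hnrnpf (median 93.2) to Fryl (24.1) in the top left block.

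The largest pattern, with 32 genes, was a second start open in the LSK, DN1, DN2a and DN2b libraries and closed in the 3 IgG libraries. Of all 34772 start clusters, 1.34% had this pattern, the most of any. Such shares, here and below, count start clusters of all protein-coding genes. The gene counts come from the 2184 eligible genes, so counts and shares are not on one scale. The strongest was Hnrnpf, whose product is an RNA-binding regulator of splicing. Its switching start at chr6:117900324, 6.47 kb upstream of the constant start, had percentiles of 84.8, 89.3 and 80.9 in LSK, 94.8 and 93.2 in DN1, 95.1 and 94.2 in DN2a, and 91.9 and 96.4 in DN2b. The 6 DN values all exceeded the 3 LSK values, and the means were 85.0 ± 4.22 (SD, n = 3) in LSK and 94.0 to 94.6 in the DN groups. In an IgG library the closest peak midpoint was 507 bp from the start, just past the limit, and within 1 kb the start was open in 11 libraries. Over the whole pattern, 4 of 32 starts had a peak between 500 bp and 1 kb in a library called closed.

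The second in rank was Utrn, whose switching start at chr10:12813615 lies in an intron 54.7 kb downstream of the constant start. It had 78.1, 57.2 and 79.4 in LSK, 89.8 and 77.0 in DN1, 87.1 and 87.1 in DN2a, and 90.7 and 94.9 in DN2b. Both DN2b values were the highest by percentile, while the deposited scores of DN2b (79 and 119) and DN1 (88 and 51) overlapped, DN1 overlapped LSK, and no IgG library had a peak within 23016 bp. Its constant start ranged from 56.9 to 90.4 and overlapped the range of the switching start. Adgrg1, an adhesion G protein-coupled receptor present on haematopoietic stem cells, had its switching start at chr8:94976993, 7.38 kb upstream. The percentiles were 67.7, 67.6 and 79.4 in LSK and 80.7 to 92.4 in the 6 DN libraries, which did not overlap LSK, although the deposited scores did (41 to 56 in LSK and 54 upwards in DN cells).

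The next 3 members came from the list of signalling and cytoskeletal genes. Ptpre encodes a receptor-type tyrosine phosphatase that is also made as a cytosolic form from a promoter of its own. Its switching start at chr7:135651937, 114 kb into the gene, had 82.4, 76.0 and 84.1 in LSK, 79.2 and 72.7 in DN1, 78.6 and 66.5 in DN2a, and 77.5 and 88.6 in DN2b, without separation between these groups, and the peaks lay a median of 434 bp from the annotated start. Lcp1, the actin-bundling protein L-plastin of leukocytes, had 43.7, 67.6 and 58.1 in LSK, 68.8 and 72.7 in DN1, 59.5 and 56.2 in DN2a, and 55.9 and 77.4 in DN2b, so that LSK overlapped both DN2 groups and DN1 lay above it. Itpr1, a calcium channel of the endoplasmic reticulum, had one of the weakest starts, with 12.6 to 61.3, a 5′ incomplete transcript and a separation of 205 kb.

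Other members of this pattern, picked after their values were seen, have known roles in RNA editing, chromatin and metabolism. Adar, which edits adenosine to inosine in double-stranded RNA, opened an upstream start 15.7 kb from the constant one, with 56.8, 53.5 and 59.8 in LSK and 61.0 to 82.9 in the DN libraries. These percentiles did not overlap, but the deposited scores did (34 to 38 in LSK and 35 upwards in DN cells). Cbx5, the heterochromatin protein HP1 alpha, had 65.0 to 79.2 in LSK and 72.7 to 86.9 in DN cells from a start in an intron 24.4 kb downstream, more than 24 kb from any IgG peak. Hk1, hexokinase 1, had 64.3 to 71.3 in LSK and 77.5 to 92.7 in DN cells, which did not overlap. Ahcyl2 split within the DN cells, with 42.9 to 52.2 in DN1, 43.7 to 61.3 in LSK and 81.7 to 91.0 in DN2a and DN2b. Calr3 had 8.12 to 46.2 in LSK against 70.6 to 93.7 in the DN libraries.

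In the second pattern, 17 genes opened a start in DN1, DN2a and DN2b and in neither LSK nor IgG, that is in the Delta1-cultured cells. Start clusters with this pattern were 0.357% of all. Ston2 ranked first. Its switching start at chr12:91746084 had 75.8 and 61.8 in DN1, 92.7 and 94.2 in DN2a, and 92.7 and 97.5 in DN2b, with means of 68.8 ± 9.91, 93.5 ± 1.06 and 95.1 ± 3.38 (SD, n = 2 each). Both DN2 groups exceeded DN1 without overlap, and 4 of the 6 values exceeded the highest value at its constant start in any library, 83.3. Mdc1, a mediator of the DNA damage checkpoint, had 93.5 and 96.9 in DN1, 91.6 and 91.0 in DN2a, and 81.7 and 91.4 in DN2b, with both DN1 values the highest by percentile, while the score of DN2b replicate 2 exceeded both, from a 5′ incomplete transcript in an exon 6.99 kb downstream.

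Smarca2 encodes BRM, an ATPase subunit of the SWI/SNF chromatin remodelling complexes. Its switching start at chr19:26747603 lies 143 kb into the gene and belongs to short transcripts with another coding start. It had 56.6 and 60.2 in DN1, 89.4 and 85.3 in DN2a, and 93.1 and 94.6 in DN2b, a rise over the 3 stages without overlap. The other 6 libraries were closed by the 500 bp limit, but each had a peak within 1 kb of this start, the closest at 748 bp, and within 250 bp the start was open in 4 libraries only, so Smarca2 kept its pattern at neither of these windows.

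Plec and Ccnd3, chosen after their values were seen, had upstream switching starts. Plec encodes plectin, a cytoskeletal linker known for its many alternative first exons. It had 81.5 and 79.3 in DN1, 80.0 and 84.1 in DN2a, and 73.6 and 92.7 in DN2b, which overlapped across stages, and within 1 kb this start was open in 11 libraries. Ccnd3 encodes cyclin D3, which drives the division of T cell precursors, and its start cluster 88.4 kb upstream, where 9 transcripts begin that share a coding start with those of the constant start, had 59.4 and 58.6 in DN1, 67.3 and 67.7 in DN2a, and 84.1 and 84.6 in DN2b. By percentile each stage of Ccnd3 lay above the one before, but the deposited scores of DN1 (44 and 35) and DN2a (47 and 40) overlapped, and DN2b alone stood apart (66 and 90). B230118H07Rik had 29.4 and 53.4 in DN1, 49.3 and 66.5 in DN2a, and 67.9 and 88.9 in DN2b, at a start shared with that of the recombinase gene Rag1.

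A further 16 genes opened a second start in DN2b alone, where start clusters of this pattern were 0.434% of all. Hdac4, a class IIa histone deacetylase, ranked first with 73.6 and 90.0 in the 2 libraries at chr1:92148393, 31.9 kb downstream of a constant start that was at 96.8 or above in all 12. Tnfrsf9, the costimulatory receptor 4-1BB of activated T cells, had 74.4 and 82.0 at chr4:150927918. Rps14, a protein of the small ribosomal subunit, had 71.8 and 77.4. The next members were weaker, and the last, at Arhgef7, had 4.83 and 25.5. The DN2b libraries were the most unequal pair in the series, with 61484 and 111582 peaks, and 15 of the 16 starts had the higher percentile in the longer list, the exception being Tef with 30.8 and 22.2. Peaks between 500 bp and 1 kb were present in some closed library at 6 of the 16 starts, those of Tnfrsf9 (687 bp) and Rps14 (653 bp) among them.

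The IgG pattern held 16 genes with 17 start clusters, and 0.210% of all start clusters had it. Agtpbp1, a carboxypeptidase that trims glutamate chains from tubulin, ranked first with 83.5, 89.1 and 78.8 at chr13:59558894 (mean 83.8 ± 5.16, SD, n = 3). Zcchc8, a subunit of the nuclear exosome targeting complex, had 74.3, 85.5 and 71.6, and Blvra, biliverdin reductase A, had 65.3, 52.8 and 61.4. The metabolic and signalling genes Hif1a, Eno1 and Akt2, chosen after their values were seen, were weaker. Hif1a, the oxygen-regulated transcription factor, had 60.1, 43.4 and 42.4 at a start 6.53 kb upstream with no peak within 6416 bp in any other library. Eno1, the glycolytic enzyme enolase, had 42.3, 14.2 and 59.8, with a peak 515 bp away in a closed library, and Akt2, a kinase of insulin signalling, had 23.7, 29.3 and 62.8 at 2 neighbouring starts that share the same peaks. In 16 of these 17 start clusters the CpG ratio was under that of the constant start.

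The remaining patterns were small, and leaving out 1 library raised their counts, up to 45 genes for DN1 and 10 for DN2a+DN2b. In DN1 alone, 7 genes qualified, and 0.135% of all start clusters had the pattern. Ms4a7, a membrane protein of macrophages, led with 65.5 and 64.6, and 5 of the 7 starts rest on 5′ incomplete transcripts. In DN2a and DN2b together, 6 genes qualified, and 0.104% of all start clusters had the pattern. Qtrt1, which makes the queuosine base of tRNA, led with 64.9 and 74.1 in DN2a and 79.0 and 96.9 in DN2b. Rab5c, of the same pattern, had 68.5 and 61.0 in DN2a and 67.9 and 82.4 in DN2b beside a constant start at 96.1 to 99.9 in all libraries.

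In LSK alone, 5 genes had a second open start, and 10 genes did without LSK replicate 2. The pattern was that of 0.244% of all start clusters. Spag9, a scaffold protein of the JNK pathway, had 75.5, 60.5 and 72.7, and Itsn1, Immt and Stxbp4 reached at most 41.2. Single genes or pairs had other combinations. Slc45a4 and Elmo2 opened a start in LSK and IgG and in no Delta1-cultured library, Slc45a4 with 41.2, 67.6 and 56.4 in LSK and 83.5, 88.5 and 91.7 in IgG, and the IgG values all exceeded the LSK values. Kmt5a (DN1 and DN2b), Rapgef6 (DN1 and IgG), Add3 (DN2a), Pde4b (LSK and DN1), Tmcc3 (LSK and both DN2) and Dok4 (LSK and DN2b) were single cases with a median percentile of 15.6 to 54.0.

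Switching starts of 2 patterns were found in 4 genes. Elmo2, which activates the GTPase Rac in cell migration, opened 1 start in all groups but IgG, with 60.4, 60.5 and 52.7 in LSK, 90.5 and 87.8 in DN1, and 44.9 to 58.1 in DN2, and another in LSK and IgG, with 38.6, 16.2 and 26.9 in LSK and 32.3, 45.9 and 65.5 in IgG. Rgs12 opened 1 start in all 3 DN groups, with 78.5 and 80.6 in DN1 and 45.5 to 77.9 in DN2, and a second in DN1 alone, with 50.6 and 42.9. Arhgef7, an exchange factor for Rac and Cdc42, had 1 start open in DN1 and another in DN2b. At equal list lengths both of these Arhgef7 starts and the DN1 start of Rgs12 were open in 0 libraries. Within 1 kb the LSK and IgG start of Elmo2 was open in 12 libraries, and within 250 bp in 4. The 2 starts of Csrp2 lie 427 bp apart and had equal percentiles in 5 of the 6 DN libraries, so their patterns are not separate.

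**Figure D4:**
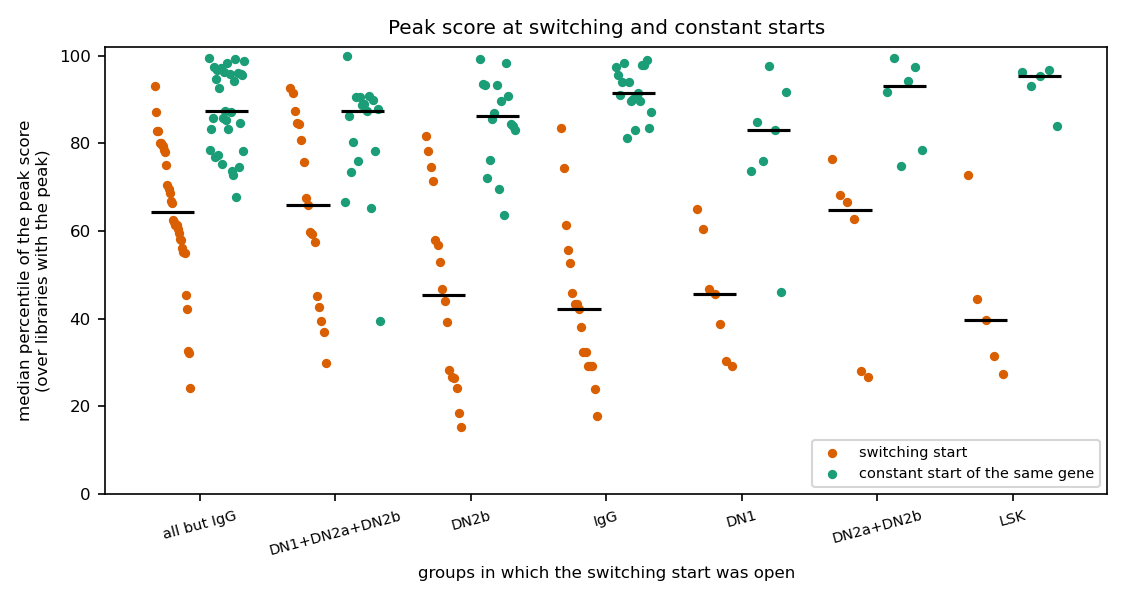
Median percentile of the peak score over the libraries with the peak (y axis) for each switching start and the constant start of the same gene, by pattern (x axis), with black lines at the medians. Constant starts lie higher in every pattern shown, with medians of 83.1 to 95.3 against 39.7 to 66.0, an order that the selection favours.

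The rule required a peak at the constant start in every library and did not use its score, so whether the constant start changed where the second start was open could be tested. The percentile at all 8463 start clusters open in every library was compared over the 5 groups with limma and Benjamini-Hochberg adjustment. The moderated F-test passed at the constant starts of 41 of 103 member genes, beside 35.6% of all constant starts. It passed at 21 of 91 at equal list lengths (1295 of 7994 over all), and at 25 to 37 of 103 when 1 library was left out (2122 to 3123 of 8463 over all), with 27 without LSK replicate 1 or LSK replicate 3 and 25 without DN1 replicate 1. A contrast of the groups with the second start open against the other groups was then fitted for each pattern of at least 10 genes.

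Where the second start was open in all groups but IgG, the constant start was higher in the same groups in 21 of 32 genes and lower in 0. Over all constant starts, 56.4% were higher and 1.29% lower in this contrast, and the median difference was 8.11 points over all and 11.4 over the members, so the members' count of 21 stood not far above the background. At an unadjusted p under 0.05 the counts were 22 and 0, beside 60.9% and 1.82% over all. The IgG lists were the shortest of the series. When every list was cut to its 32952 highest peaks, 9 of 31 members were higher and 1 lower (1491 and 695 of 7994 over all), and when each library was centred on its median over all constant starts, 11 were higher and 10 lower (2278 and 2985 of 8463 over all). Centring moved the difference of every start in this contrast alike, the median over all starts going to -0.97. A turn to lower after centring is therefore no result about the single gene.

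Of the 21 genes, 5 passed the limma contrast in the same direction under all 17 alternatives, including these scalings and the omission of each library in turn. They included Mtx1, Calr3, Adar and Ikbkg. How many of all constant starts passed under every alternative was not counted, so these 5 have no background share. The constant start of Adar had a mean over group means of 90.0 in the groups with the second start open and 57.5 in IgG, a difference of 32.6 ± 6.70 points (SE, limma adjusted p = 0.00391, and 7.21e-05 to 0.0353 under the alternatives), with 84.7 to 97.7 in the 9 libraries and 34.9, 72.0 and 65.5 in the 3 IgG libraries. Mtx1, a protein import component of the outer mitochondrial membrane, differed by 39.8 ± 5.83 points (limma adjusted p = 8.22e-04) and Ikbkg, the NEMO subunit of the IkappaB kinase complex, by 32.9 ± 5.01 (limma adjusted p = 9.86e-04). In these genes both starts were weaker or closed in IgG. Adgrg1 (26.5 ± 4.55, limma adjusted p = 0.00169) and Ptpre (22.7 ± 4.75, limma adjusted p = 0.00425) were higher as well, but over the alternatives the adjusted p ran from 2.58e-04 to 0.132 and from 0.00134 to 0.259, each highest at equal list lengths. Itpr1 was 4.67 ± 1.12 points higher (limma adjusted p = 0.00786), and passed in the opposite direction after centring (-4.40, limma adjusted p = 0.0416), with adjusted p from 0.00117 to 0.451 over the alternatives. Hnrnpf, Utrn and Lcp1 did not pass, with differences of 1.31, 11.6 and -4.50 points and limma adjusted p of 0.189, 0.0850 and 0.464. At equal list lengths the difference of Utrn turned to -6.83 points (limma adjusted p = 0.423). After centring, Hnrnpf turned to -7.77 points (limma adjusted p = 0.00183) and Lcp1 was at -13.6 (limma adjusted p = 0.0185), both then passing as lower, with adjusted p from 0.00183 to 0.693 and from 0.0185 to 0.999 over the alternatives.

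For the second start opened in the Delta1-cultured groups, the constant start was higher in those groups in 5 of 17 genes and lower in 0, beside 37.6% higher and 1.31% lower over all. The unadjusted counts were 8 and 0, beside 48.7% and 2.15% over all. The count of higher starts was 3 without DN1 replicate 1, DN2a replicate 1 or DN2b replicate 2 (1844, 2041 and 1904 of 8463 over all), 8 without IgG replicate 1 (3726 over all), and 9 with the logit, the log2 score or a variance trend (3806, 3743 and 3807 over all), so that the count over all starts moved the same way. At equal list lengths 0 of 13 members were higher and 3 lower (699 and 739 of 7994 over all), and after centring 2 were higher and 2 lower (1377 and 2065 of 8463 over all). Myo18a, an unconventional myosin, differed by 44.6 ± 7.15 points (limma adjusted p = 0.00314), with 91.5 to 97.2 in the 6 DN libraries against 18.2, 53.5 and 29.5 in LSK and 62.8, 48.3 and 83.2 in IgG, and the DN libraries did not overlap the others. It passed all 16 alternatives that could test it, as did Kctd1 (35.3 ± 8.05, limma adjusted p = 0.0120). Both lost their always-open start at equal list lengths, and how many of all constant starts passed every alternative was not counted. The constant start of Smarca2 was 6.46 ± 1.02 points higher (limma adjusted p = 0.00296), and 0.892 points at equal list lengths, with adjusted p from 0.00259 to 0.834 over the alternatives. That of Ston2 differed by 17.3 ± 6.49 points with a limma adjusted p of 0.0638, and that of Mdc1 by 0.0390 points. At equal list lengths the difference of Ston2 turned to -3.8 points (limma adjusted p = 0.757). After centring, which moves all starts alike, Mdc1 was at -5.38 points and passed as lower (limma adjusted p = 0.0149).

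In the DN2b pattern, limma called 0 of 16 constant starts in either direction, beside 0.248% higher and 0.0827% lower over all, and all 17 alternatives also called 0. At an unadjusted p under 0.05, 2 were higher and 0 lower, beside 14.1% and 0.981% over all. Hdac4 differed by 0.616 ± 0.898 points. In the IgG pattern, the constant start was lower in IgG in 7 of 16 genes and higher in 1, the contrast being the mirror of the first and its background shares likewise. At equal list lengths 3 were lower and 3 higher, and after centring 4 lower and 9 higher. Here too, how many of all constant starts passed every alternative was not counted. Hacl1, a peroxisomal lyase, differed by -16.6 ± 2.12 points (limma adjusted p = 4.35e-04) and 4930402H24Rik -41.1 ± 5.67 (limma adjusted p = 6.22e-04), and both passed all 17 alternatives. Shld2, a subunit of the shieldin complex in double-strand break repair, was the 1 gene with a higher constant start in IgG (8.07 ± 2.06, limma adjusted p = 0.0105), and this call was lost with the log2 score (adjusted p from 1.36e-04 to 0.354 over the alternatives). Zcchc8 (-13.3 ± 2.00, limma adjusted p = 9.48e-04) and Blvra (-13.7 ± 3.04, limma adjusted p = 0.00548) were lower, with adjusted p from 4.56e-05 to 0.138 and from 3.25e-04 to 0.108 over the alternatives.

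The set was also read against 5 gene lists. No member was in the lists of T lineage, stem and progenitor, or myeloid genes, of which only 5, 5 and 3 had both starts at least 5 kb apart and a constant start. Of 15 such genes of chromatin and transcription, 2 were members (Hdac4 and Smarca2, 13.3%), and of 18 of signalling and cytoskeleton, 3 were (Itpr1, Lcp1 and Ptpre, 16.7%), beside the 4.72% over all. The shares rest on 2 and 3 genes. The lists were written with earlier results of these data known, so the shares carry no test. At equal list lengths Smarca2, Itpr1 and Lcp1 did not keep their pattern, whereas Hdac4 and Ptpre did.

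Short sequence motifs were searched as exact letters on both strands in the 250 bases before and 50 after the start. The E box letters CAGCTG were in 29.6% of the 108 switching starts and in 16.2% of all start clusters, the GATA letters AGATAA in 18.5% and 11.3%, the RUNX letters TGTGGT in 21.3% and 16.2%, and the AP-1 letters TGANTCA in 13 of 108 starts and 7.28%. The RBPJ letters TGGGAA, the core bound by the transcription factor of Notch signalling, were in 28 of 108 switching starts and 8695 of all 34772, and in 35.3% of both the 17 Delta1 and the 17 IgG starts. The ETS letters CCGGAA, which hold a CpG, were in 13.0% of switching starts, 31.1% of the constant starts of members and 34.6% of all always-open starts, and the TATA box letters TATAAA in 10.2% of switching starts and 13.4% of all. For the TCF1/LEF1 letters CTTTGA the shares were 17.6% and 16.0%, and for the IRF letters GAAANNGAA 10.2% and 9.10%. The PU.1 letters GAGGAA were in 8 of 17 IgG starts and 7 of 17 Delta1 starts. They were in 27.7% of all start clusters, 32.4% of all switching starts and 33.1% of the 1040 other group-limited clusters. The ETS letters were in 0 of 17 IgG starts, 14.6% of all start clusters and 11.2% of the 1040. The counts per pattern are small, and a match of letters is not a bound site.

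A peak at a switching start could be one of several sites of the same pattern in its neighbourhood. Between 1 and 25 kb from the start, another site open in just the same libraries was present for 7 of 32 starts of the pattern of all groups but IgG, 2 of 17 of the Delta1 pattern, 7 of 16 of DN2b and 2 of 17 of IgG. The same held for 1349, 846, 1013 and 1042 of the 8463 always-open start clusters. Among the DN2b starts, the 7 with such a site included Hdac4, Tnfrsf9 and Rps14, and each of the 7 had 1.

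How many genes qualified depended on the window and the lists, and the genes differed in how well they stood. Within 250 bp 70 genes qualified, 60 of them among the 103 with the same pattern, and within 1 kb 136, 83 of them shared. With all lists cut to 32952 peaks 91 genes qualified, 46 of them shared, and the order of the patterns changed, since IgG held 26 genes, all groups but IgG 18, Delta1 10, LSK 9 (1 of them shared) and DN2b 8. In the upper 50% of each list 82 genes qualified. Of these only 26 were shared with the same pattern, 3 in IgG and 0 in DN1. In all, 35 genes kept their pattern at the same start both at equal list lengths and at 1 kb, and 27 of these have a start model with a complete 5′ end. The 27 include Adar, Adgrg1, Cbx5, Gne, Hk1, Ptpre and Utrn of the pattern of all groups but IgG, Ston2 and Tfap4 of Delta1, Hdac4 of DN2b, Rab5c and Tcf25 of DN2a+DN2b, Spag9 of LSK, Slc45a4 of LSK and IgG, and 8 of IgG, among them Agtpbp1, Akt2, Blvra and Hif1a. No DN1 gene was among them. Of the genes named, Hk1, Ptpre, Hdac4, Slc45a4 and Akt2 did not qualify with the same pattern within 250 bp. The switching start of Hdac4 was then open in 0 libraries. Adar, Gne, Ptpre, Ston2, Slc45a4, Akt2 and Hif1a did not qualify with the same pattern in the upper 50% of each list. Leaving out 1 library at a time gave 115 to 179 genes. An omission only relaxes the rule, so all 103 genes stayed each time and the count could not fall. The highest count came without the shorter of the DN2b lists, when 73 genes had the DN2b pattern in place of 16, and without the shorter DN1 list 165 genes qualified, 45 of them with the DN1 pattern in place of 7.

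**Figure D5:**
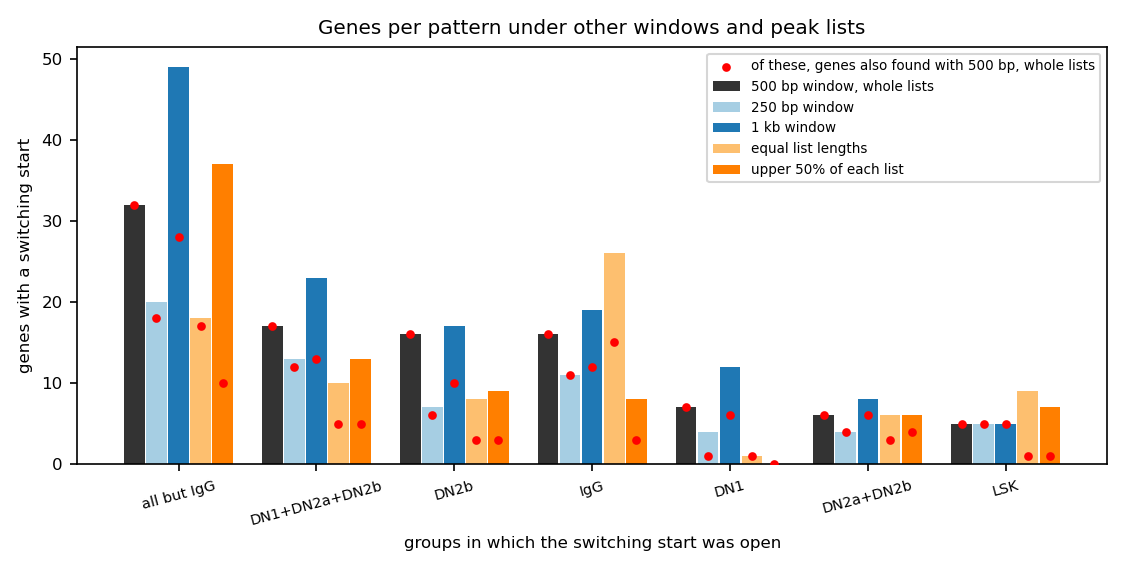
Number of genes with a switching start (y axis) by pattern (x axis) for the 500 bp window and whole lists, for windows of 250 bp and 1 kb, for lists cut to equal length and for the upper 50% of each list, with red points for the genes shared with the first setting in the same pattern. At equal list lengths the bar of all groups but IgG falls from 32 to 18 and that of IgG rises from 16 to 26.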

How the data were processed

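Nuclei were digested with DNase I and sequenced. The authors aligned reads to mm10 (the submitters' processing notes name BWA 0.7.12 and SAMtools 1.2) and called peaks of 150 bp with hotspot2 at an FDR of 0.05 in each library, without pooling. The deposited score of a peak is a whole number of no stated meaning and was used here as its midrank percentile within the list. Read depth is unknown. Protein-coding transcript starts of GENCODE M21 within 500 bp of the next were joined into start clusters. Members and gene lists were chosen with earlier results of these data known. The genes named by rule were the top 3 by median percentile in patterns of at least 10 genes, the top 1 in patterns of 3 to 9, and members in the gene lists. Percentiles at constant starts were fitted with limma 3.58.1 (R 4.3.3) over 5 groups, with Benjamini-Hochberg adjusted p under 0.05. The fit was checked on simulated data with independent noise and no shift of whole libraries. That check does not cover shifts such as the one that centring removes. Python 3.11.15, pandas 2.3.3, numpy 2.4.6, pysam 0.24.0 and matplotlib 3.10.9 were used. Alternatives changed the window, the separation of starts, the transcript set, the list lengths, the scale of the score and the libraries. Some members are counted but not reported by name here.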

Additional observations from a re-analysis of the deposited data

How the results depend on the processing

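Under the alternatives the genes of the pattern of all groups but IgG numbered 20 within 250 bp, 49 within 1 kb, 18 at equal list lengths and 17 with basic transcripts. Those of the Delta1 pattern numbered 10 at equal list lengths and 8 with basic transcripts, those of DN2b 7 within 250 bp, 8 at equal list lengths, 9 in the upper 50% of each list and 5 with basic transcripts, and those of IgG 26, 8 and 4 at equal list lengths, in the upper 50% and with basic transcripts, where 42 genes qualified in all. At equal list lengths the limma F-test passed at 1295 constant starts, 21 of them of members. Constant starts of members were higher in all groups but IgG in 9 genes and lower in 1 at equal list lengths, and 11 and 10 after centring, which moved the median difference over all starts from 8.11 to -0.97. In the Delta1 pattern 9 were higher with the logit, the log2 score or a trend, 0 higher and 3 lower at equal list lengths, and 2 and 2 after centring. In the IgG pattern 0 were higher with the log2 score, 3 higher and 3 lower at equal list lengths, and 9 and 4 after centring. After centring, which moves all starts of a contrast alike, the difference of Itpr1 turned to -4.4. The cause of the other shifts was not tested. Leaving out 1 library at a time gave 115 to 179 genes, 32 to 47 in the pattern of all groups but IgG, 17 to 21 in Delta1, 16 to 73 in DN2b, 7 to 45 in DN1, 6 to 10 in DN2a+DN2b, 5 to 10 in LSK and 16 to 21 in IgG. These gene counts could not fall, since an omission only relaxes the rule. Without DN2b replicate 1 there were 179 genes (73 in DN2b), without DN1 replicate 2 there were 165 (45 in DN1), without DN1 replicate 1 there were 25 in DN2b and 12 in DN1, and without DN2b replicate 2 there were 14 in DN1. The F-test then passed at 2122 to 3123 constant starts, 25 to 37 of members, with 20 to 21 higher and 0 to 0 lower in the first pattern, 3 to 8 and 0 to 0 in Delta1, 0 to 0 and 0 to 0 in DN2b, and 1 to 1 higher and 6 to 7 lower in IgG. A DN group left with 1 library was assumed to vary like the others. The centred fits, the log2 score and trend fits of these contrasts, and the omission of 5′ incomplete transcripts, were chosen after seeing the data. No paired analysis was possible because the labels give no replicate numbers, those used here being given in accession order only to name a library. Depth is unknown, so an absent peak in a short list may be an undetected one.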
